A study of Homo sapiens with 16 samples.

Results

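The SRC family kinases FGR, LYN, SRC, FYN, LCK, BLK and YES1 and their regulator CSK were followed across 16 one-colour expression arrays of LP-1, an established multiple myeloma cell line. The 8 genes were found by matching the RefSeq accessions of the array's probes to gene symbols, and they stand among 20503 genes matched this way. FGR was chosen because its signal was lost in one of the lines, so its difference between the lines is given as a description with no test. The other 7 genes were chosen by family membership.

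LP-1 cells, described in the study as carrying a deleted or mutated TRAF3, had been transduced with a lentiviral vector for cIAP2 and enhanced green fluorescent protein (LP-1-cIAP2-eGFP) or for the fluorescent protein alone (LP-1-eGFP, the control) and sorted for green fluorescence. Both lines were untreated or given 10 nM bortezomib, a proteasome inhibitor, for 6 h or 24 h, with 2 replicates in each of the 8 conditions. Each construct was represented by a single transduced line, so the vector's cargo and any other difference between these lines cannot be told apart. Whether either line was clonal is not given in the sources used here.

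BIRC3, the gene that encodes cIAP2, is read by 1 probe on this array. The study's methods place that probe in the 3' end of the mRNA, outside the coding sequence carried by the vector, so it reads the cell's own gene alone and does not check the transgene. The normalized log2 signal of BIRC3 lay between 13.54 and 14.04, with a median of 13.75, on the 8 control arrays, and between 11.92 and 13.67, with a median of 12.32, on the 8 LP-1-cIAP2-eGFP arrays. The untreated LP-1-cIAP2-eGFP arrays read 11.92, 12.13, 11.92 and 12.06, all below every control array. The transgene was not measured on these arrays, the study's own check of it by RT-qPCR was not analysed here, and the lines are named as the labels give them.

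SRC family kinases are tyrosine kinases anchored to the inner face of the plasma membrane, where they pass on signals from antigen receptors, Fc receptors and integrins. CSK phosphorylates the tail tyrosine of these kinases and holds them in a closed, inactive form, while phosphatases that remove this phosphate open them. LYN, BLK and FYN are known from the B lineage, from which myeloma arises, LCK from T cells, and FGR mainly from myeloid cells, whereas SRC, YES1 and FYN are widely expressed.

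Values are log2 signals after quantile normalization. A spot was counted as measured where the scanner software marked it well above background. A probe was counted as well above background on an array where a share of at least 0.5 of its spots was so marked. This held on all 16 arrays for 14867 of 33731 probes tested. Among the 8 genes, LYN, FYN and YES1 were well above background on all 16 arrays. The first replicate of the cIAP2 line after 24 h of bortezomib was a dim array, with 35.5% of spots well above background and a median log2 signal of 3.18 before normalization, against 49.0% to 71.1% and 5.73 to 6.64 on the other 15 arrays. The arrays lay on 2 slides, the first holding 6 arrays of the cIAP2 line and 2 of the control line and the second holding 2 and 6. Treatment was uneven within the slides, both cIAP2 arrays of the second being untreated, so values within a slide are given by condition, for those that both lines share there. They have no test, and those after 24 h of bortezomib include the dim array, except for CSK. Where arrays of the lines are said to overlap or not, this describes the values and carries no test. The share of all probes whose arrays do not overlap is not given. A lower signal of a gene can come from fewer cells that express it or from less RNA per cell, and these cannot be told apart in bulk RNA.

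FGR gave a bright signal in the control line, whereas none of the 8 LP-1-cIAP2-eGFP arrays had it well above background. On the first untreated 24 h array of that line 3 of the 10 FGR spots were so marked, too few to count. Control FGR read 13.50 and 13.28 untreated at 6 h, and 13.83 and 13.56 untreated at 24 h. After bortezomib it read 12.96 and 12.77 at 6 h, and 11.57 and 11.53 at 24 h. Arrays of the cIAP2 line read between 3.84 and 4.45 in the 4 conditions. The groups were far apart, and the lowest control array lay above every array of the other line. With the dim side set no lower than the smallest signal counted as measured on each array, FGR was at least 299.8-fold lower in the cIAP2 line untreated at 6 h, at least 777-fold lower untreated at 24 h, at least 250-fold lower after 6 h of bortezomib and at least 43.6-fold lower after 24 h. In that last condition control FGR was lowest and the smallest signal counted as measured on the cIAP2 arrays was highest, at a mean of 6.10. With a model-based background correction, in place of the scanner software's, the bound over both untreated times was 135-fold in place of 483-fold.

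FGR (gene 2268) lies on chromosome 1, at chr1:27612064-27635185 in GRCh38.p14. RefSeq gave 2 start sites, and the 250 bases before the one further upstream, at chr1:27635186-27635435 on the minus strand, are shown because FGR is the gene whose signal was lost. The capitals mark the letters GAGGAA, the core of sites bound by PU.1, a myeloid and B cell factor, on either strand.
FGR: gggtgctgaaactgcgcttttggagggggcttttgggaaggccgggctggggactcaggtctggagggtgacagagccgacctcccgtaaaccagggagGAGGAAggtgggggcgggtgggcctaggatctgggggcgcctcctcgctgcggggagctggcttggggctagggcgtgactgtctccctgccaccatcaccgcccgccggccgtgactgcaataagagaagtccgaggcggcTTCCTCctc
This motif is common, being found in 23.6% of 35116 promoter windows of the same length, and in 2 of the 10 windows searched, 1 of FGR and 1 of CSK. Those windows belong to FGR, LCK, FYN, YES1 and CSK, and the other members were not searched. The NF-kappaB motif was found in 5.21% of all windows and in neither FGR window. These are letter matches and not measured binding.

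Myeloid, T cell and NK markers were read beside FGR and LCK, since these kinases are best known from other blood cells. Of the 6 myeloid markers with a probe, CSF3R alone exceeded background on all 16 arrays and CSF1R did on none. In the average between the lines, where 16.1% of all probes passed, 1 of the 4 myeloid markers tested passed. It was ITGAM, the CD11b integrin chain, lower in the cIAP2 line (adjusted p = 0.0019). ITGAM was above background on 7 control arrays and 3 of the other line, so its size is given as a bound, at least 2.18-fold lower untreated at 6 h. The summed linear signal of the myeloid markers was 326 to 537 on control arrays and 344 to 494 on 7 arrays of the cIAP2 line, with 1178 on the dim array. None of 7 T cell markers exceeded background on all 16 arrays, and of the 6 tested 2 passed in this average, in opposite directions. CD3D was lower in the cIAP2 line (-1.14, adjusted p = 0.046; above background on 8 control arrays and 4 of the other line) and CD28 was higher (1.16, adjusted p = 0.021). With 75th percentile scaling 2 T cell markers were higher and 0 lower, and with slide as a fixed term 0 passed in either direction. The summed T cell signal was 279 to 531 in the control line and 344 to 701 on 7 arrays of the cIAP2 line, with 3172 on the dim array. The NK sum was 797 to 1295 in the control line and 460 to 866 on 7 arrays of the cIAP2 line, with 262 on the dim array. Of the 5 NK markers tested GNLY passed in the average between the lines, lower in the cIAP2 line (mean log2 signal 8.76 against 6.25), and KLRD1 was above background on no array. Plasma cell markers dominated, with 9 of 12 on all 16 arrays, and of the B cell markers MS4A1 and PAX5 were on none. The part of these markers in the FGR and LCK results was not tested.

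**Figure D1:**
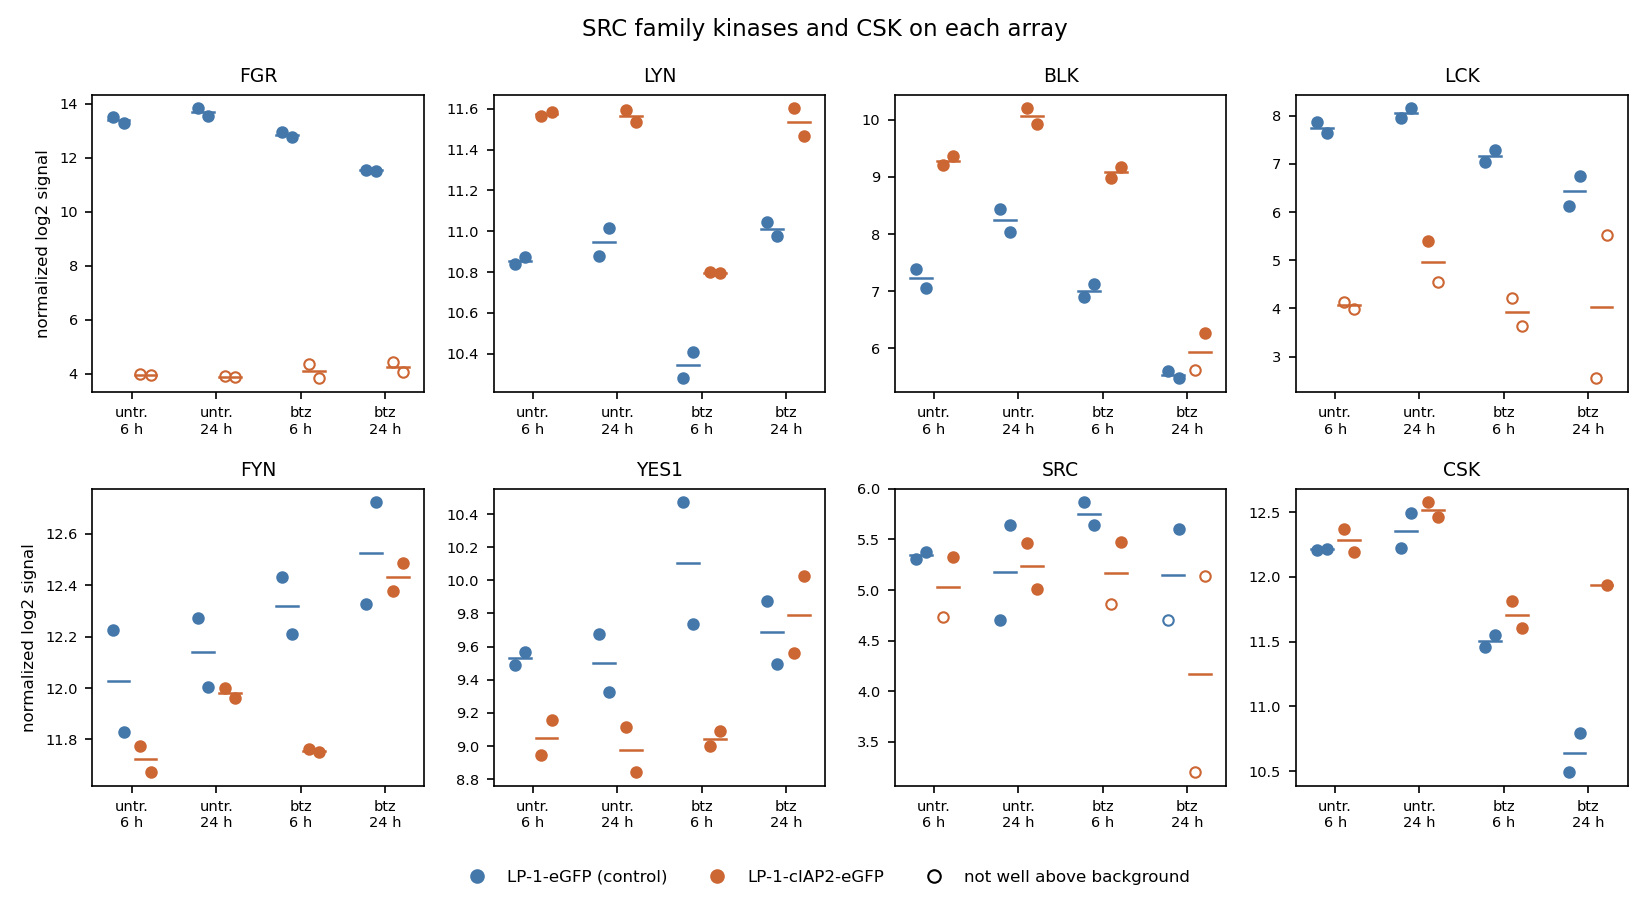
Normalized log2 signal (vertical axis, own scale in each panel) of the 8 genes on each array, by condition, with control arrays in blue and LP-1-cIAP2-eGFP arrays in orange. Lines are means of the replicates, open points are not well above background, LCK is its brighter probe, and FGR stands between 11.53 and 13.83 in the control line and below 5 in the other.

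The first question was how the family differed between the lines. Averaged over treatment and time, 3 of the 7 genes tested were higher in the cIAP2 line (BLK, LYN, CSK) and 2 were lower (LCK, YES1), at an adjusted p under 0.05, while 16.1% of all probes passed this test in either direction. FYN and SRC did not pass. A stricter rule took its thresholds from the study's methods but not their tests, a 3-way analysis of variance and a second moderated test that was not applied here. Under this rule, an adjusted p under 0.001 for the limma line average with a difference of over 2-fold between untreated cells of the lines, 2 of the 7 passed (BLK and LCK), against 2.37% of all probes. LCK met the filter on dim probes through the control line alone on the probe counted here, so that filter favours its difference and its calls support nothing.

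BLK, a kinase of B cell receptor signalling, showed the largest rise of the 7 genes in this average. BLK read 7.40 and 7.05 in the untreated control line at 6 h and 9.20 and 9.36 in the cIAP2 line. At 24 h without drug, it read 8.44 and 8.04 against 10.20 and 9.92. After 6 h of bortezomib, it read 6.89 and 7.13 against 8.98 and 9.17. The replicates of the lines did not overlap in these conditions, and BLK was higher in the cIAP2 line by 2.06 ± 0.24 (SE) untreated at 6 h, 1.82 ± 0.24 untreated at 24 h and 2.07 ± 0.24 after 6 h of bortezomib (adjusted p = 0.0017, 0.0036 and 0.0018).

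After 24 h of bortezomib BLK was low in both lines, at 5.60 and 5.48 in the control line and 5.61 and 6.27 in the cIAP2 line, of which the first was not well above background. The difference of 0.40 there did not pass (95% interval -0.14 to 0.95, adjusted p = 0.32). Under the 9 other settings computed this difference was -0.36 to 0.93 and passed in none, so its direction is not known. The average over conditions was 1.59 ± 0.12 (SE), a 3.00-fold rise (adjusted p = 2.2e-05). Within the first slide BLK differed by 2.15 untreated at 6 h and 0.34 after 24 h of bortezomib, and within the second by 1.97 untreated at 6 h and 1.68 at 24 h. The BLK average with slide as a fixed term was 1.60 (adjusted p = 0.00046).

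LYN, a kinase that both starts and restrains B cell receptor signalling, was higher in the cIAP2 line by less. The untreated control line read 10.84 and 10.87 at 6 h and 10.88 and 11.02 at 24 h. The cIAP2 line read 11.56 and 11.58, and 11.59 and 11.54. With bortezomib, control LYN read 10.28 and 10.41 at 6 h and 11.05 and 10.98 at 24 h, and the other line read 10.80 on both arrays at 6 h and 11.60 and 11.46 at 24 h. The lines did not overlap within any of the 4 conditions, and the average difference was 0.58 ± 0.06 (SE), 1.49-fold (adjusted p = 0.00017). With slide as a fixed term it was 0.56 (adjusted p = 0.0033). Within the first slide LYN differed by 0.69 untreated at 6 h and 0.49 after 24 h of bortezomib, and within the second by 0.75 untreated at 6 h and 0.59 at 24 h.

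Taken one condition at a time, the LYN difference was 0.72, 0.62, 0.45 and 0.52 for untreated 6 h, untreated 24 h, bortezomib 6 h and bortezomib 24 h (adjusted p = 0.012, 0.028, 0.094 and 0.038). Leaving out 1 array at a time changed these single-condition calls. The untreated 6 h call was lost without any 1 of its own 4 arrays (adjusted p = 0.093 to 0.12), the untreated 24 h call held only when a bortezomib 24 h array was left out, and the bortezomib 24 h call held only without an untreated 24 h control array or without the second cIAP2 array of that condition (adjusted p up to 0.18 and 0.16). All 3 calls were lost without a filter on signal, and both 24 h calls also with 75th percentile scaling and with slide as a fixed term.

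Per condition, 3 of the 7 genes passed untreated at 6 h (BLK and LYN higher, LCK lower), against 3.09% of all probes. Untreated at 24 h, 2 passed (BLK and LYN), against 2.77%. After bortezomib for 6 h, BLK was higher and LCK lower, against 3.31%, and after 24 h LYN and CSK were higher, against 5.92%. The LCK calls in these counts come through the filter that favours them and support nothing.

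**Figure D2:**
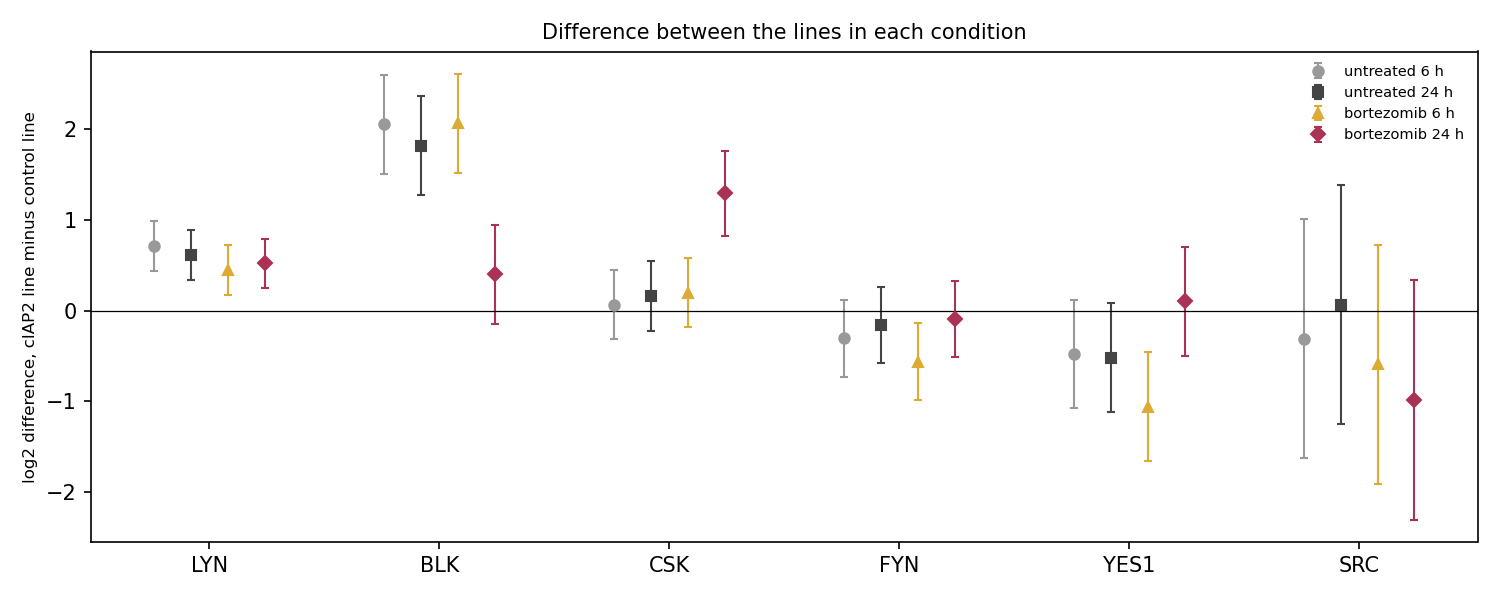
Log2 difference, cIAP2 line minus control line (vertical axis), of 6 of the genes in each condition (symbols), with 95% intervals from limma. BLK stands near 2 in 3 conditions and at 0.40 after 24 h of bortezomib, while CSK stands near 0 in 3 and at 1.30 after 24 h.

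CSK, the inhibitory kinase of the family, did not differ between the lines beyond its error in 3 of the 4 conditions. Control CSK read 12.21 and 12.22 untreated at 6 h, 12.22 and 12.49 untreated at 24 h, and 11.46 and 11.55 after 6 h of bortezomib. The cIAP2 line read 12.37 and 12.20, 12.58 and 12.46, and 11.81 and 11.60 in these conditions. The differences were 0.07 (95% interval -0.31 to 0.45), 0.16 (-0.22 to 0.54) and 0.20 (-0.18 to 0.58). After 24 h of bortezomib the control line read 10.49 and 10.79 and the cIAP2 line read 11.94 on a single array, because the only CSK spot of the dim array was marked as an outlier and left out.

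That difference was 1.30 ± 0.21 (SE), 2.45-fold (adjusted p = 0.0094), with the lone array assumed to vary like the other conditions. With the outlier spots kept, the dim array read 11.75 and the difference was 1.22 (adjusted p = 0.0042). The call was lost without the first control replicate of the condition (1.15, adjusted p = 0.054) and when arrays were weighted by their quality (adjusted p = 0.51). The average over conditions was 0.43 ± 0.09 (adjusted p = 0.011), lost with slide as a fixed term (0.43, adjusted p = 0.061) and with array weights (0.43, adjusted p = 0.064). Within the first slide CSK differed by 0.15 untreated at 6 h and 1.44 after 24 h of bortezomib, and within the second by -0.01 untreated at 6 h and 0.10 at 24 h.

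LCK, the kinase of T cell receptor signalling, was read by 2 probes. The brighter, A_33_P3382746, has 1 spot and read 7.86 and 7.63, and 7.95 and 8.15, in the untreated control line at 6 h and 24 h. With bortezomib it read 7.03 and 7.29 at 6 h and 6.12 and 6.75 at 24 h. In the cIAP2 line it read 2.55 to 5.53, and 1 of 8 arrays was well above background, an untreated 24 h array at 5.39. LCK was at least 5.98-fold lower there untreated at 6 h, at least 4.79-fold lower after 6 h of bortezomib and at least 1.17-fold lower after 24 h. The lines did not overlap on this probe. The fitted average over conditions passed (adjusted p = 0.00037, and 0.0047 with slide as a fixed term), but its size reads a probe mostly at background, and it moved from -3.10 to -1.24 with the model-based background correction. This probe was tested through the control line alone, so its calls between the lines, here and by condition, support nothing. The cIAP2 line read lower than the control line in each condition that both share on a slide.

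By condition, the fit for this LCK probe passed untreated at 6 h (adjusted p = 0.028) and after 6 h of bortezomib (adjusted p = 0.049), where neither array of the cIAP2 line was above background, but not untreated at 24 h (adjusted p = 0.068) or after 24 h of bortezomib (adjusted p = 0.095). The untreated 6 h call was lost without any 1 of its 4 arrays or either control array given bortezomib for 6 h (adjusted p = 0.055 to 0.19), and the bortezomib 6 h call held only without an array of the cIAP2 line given bortezomib for 24 h (adjusted p = 0.00066), and reached 0.24 otherwise. The untreated 6 h call was also lost without a filter on signal, with slide as a fixed term and with probes averaged (adjusted p = 0.050 to 0.13), and untreated at 24 h the probe passed with 75th percentile scaling, normexp and array weights.

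The other LCK probe, A_23_P103361, has 10 spots and was above background on both untreated 24 h arrays of the cIAP2 line. It read 5.77 to 7.02 on the control arrays and 3.48 to 5.96 on those of the cIAP2 line, with the replicates apart in each condition but the ranges over conditions overlapping. Its average difference was -1.15 ± 0.30 (SE; adjusted p = 0.025), and neither a single condition nor the untreated pair passed. The probes gave the same direction and different sizes, and which transcripts each reads is not known here.

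**Figure D3:**
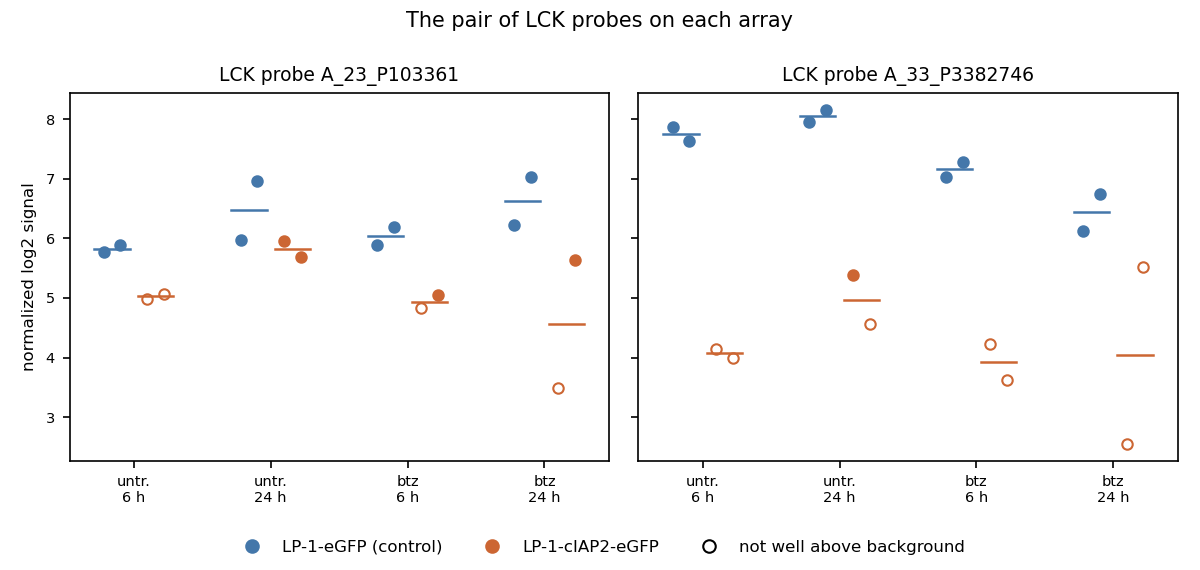
Normalized log2 signal (vertical axis) of the pair of LCK probes on each array, by condition and line, with lines for means and open points for spots not well above background. On A_33_P3382746 the control line stands at 6.12 to 8.15 and the cIAP2 line at 2.55 to 5.53, and on A_23_P103361 the ranges overlap.

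LCK (gene 3932) also lies on chromosome 1, at chr1:32251265-32286165. The 250 bases before its upstream start, at chr1:32251015-32251264 on the plus strand, are shown beside those of FGR because both genes read lower in the cIAP2 line. The capitals mark the single match to the NF-kappaB motif, which lies on the opposite strand.
LCK: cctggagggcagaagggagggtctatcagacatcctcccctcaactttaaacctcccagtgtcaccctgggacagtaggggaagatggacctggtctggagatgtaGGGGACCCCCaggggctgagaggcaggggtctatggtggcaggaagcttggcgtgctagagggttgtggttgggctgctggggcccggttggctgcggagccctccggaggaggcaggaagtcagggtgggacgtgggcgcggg
The same motif was found in 1 window each of FYN and YES1, and 3 of the 10 windows held it.

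YES1, a widely expressed member, read lower in the cIAP2 line in 3 of the 4 conditions. YES1 read 9.49 and 9.57, and 9.67 and 9.32, in the untreated control line at 6 h and 24 h, against 8.94 and 9.16, and 9.11 and 8.84, in the cIAP2 line. After 6 h of bortezomib it read 10.47 and 9.74 against 9.0 and 9.09. After 24 h it read 9.88 and 9.50 against 9.56 and 10.03, where the lines overlapped. The average YES1 difference was -0.49 ± 0.13 (SE; adjusted p = 0.034).

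The YES1 call held without any 1 of 6 arrays and was lost without any 1 of the other 10 (-0.49 with all arrays, adjusted p up to 0.086), namely both cIAP2 arrays of each 6 h condition, its second untreated 24 h array, the first control array of each condition and the second untreated 6 h control array. The YES1 call was also lost under 4 of 10 other settings, with slide as a fixed term (-0.55, adjusted p = 0.087), with normexp background correction (-0.57, adjusted p = 0.13), without a filter on signal (adjusted p = 0.068) and with array weights (adjusted p = 0.17).

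FYN read 11.83 to 12.72 on control arrays and 11.67 to 12.49 on arrays of the cIAP2 line. These ranges over all conditions overlapped. In 3 of the 4 conditions both FYN arrays of the cIAP2 line read below both control arrays, a description with no test and no share over all probes. The widest gap was after 6 h of bortezomib, at 11.76 and 11.75 against 12.43 and 12.21 (difference -0.56, adjusted p = 0.19). The average FYN difference of -0.28 (95% interval -0.49 to -0.07) did not pass (adjusted p = 0.078). Within the first slide FYN differed by -0.06 untreated at 6 h and 0.10 after 24 h of bortezomib, and within the second by -0.55 untreated at 6 h and -0.18 at 24 h. SRC was near background throughout, at 4.71 to 5.87 on control arrays and 3.20 to 5.48 on the others, and its difference of -0.46 had a 95% interval from -1.11 to 0.20 (adjusted p = 0.36).

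The second question was how bortezomib changed the family in each line. At 24 h, FGR, BLK and CSK fell in the control line, 3 of 8 genes tested and none higher, where 21% of all probes passed. In the cIAP2 line BLK fell and YES1 rose, 2 of the 7 tested, where 28.6% of all probes passed. In the mean of both lines BLK and CSK fell and FYN rose, where 34.8% passed, which makes calls at 24 h common among all probes.

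FGR in the control line fell by 2.15 ± 0.20 (SE) after 24 h of bortezomib, 4.43-fold, from 13.83 and 13.56 to 11.57 and 11.53 (adjusted p = 9.9e-05). This contrast is not the one that chose FGR, though it uses the same control arrays. At 6 h it was -0.53 (95% interval -0.99 to -0.07; adjusted p = 0.32). BLK fell by 2.70 ± 0.24 in the control line, 6.50-fold (adjusted p = 7.6e-05), and by 4.12 ± 0.24 in the cIAP2 line, 17.4-fold (adjusted p = 7.0e-06). The 17.4-fold is read partly against background, since BLK was not well above it on the dim array. With the model-based background correction the control fall of BLK was smaller (-1.70, adjusted p = 0.0021).

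The BLK responses differed by -1.42 ± 0.35 between the lines, which did not pass over all probes (adjusted p = 0.32), and the cIAP2 arrays ended near background. At 6 h the BLK changes were -0.21 (95% interval -0.76 to 0.33) in the control line and -0.20 (-0.75 to 0.34) in the other.

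CSK fell by 1.72 ± 0.17 (SE) in the control line at 24 h, 3.28-fold (adjusted p = 0.00019), and its change in the cIAP2 line was -0.58 ± 0.21, from a single array (adjusted p = 0.065). With outlier spots kept that change was -0.69 and passed (adjusted p = 0.015). The CSK responses differed by 1.13 ± 0.27 (adjusted p = 0.32). In the mean of the lines CSK fell by 0.64 ± 0.12 at 6 h (adjusted p = 0.016), though this was lost without any 1 of 6 arrays, namely the 4 control arrays of the 6 h conditions, the first untreated and the second bortezomib array of the cIAP2 line at 6 h (adjusted p = 0.059 to 0.078), and by 1.15 ± 0.13 at 24 h (adjusted p = 0.00017).

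LYN took another course, lower at 6 h and back at its untreated level at 24 h. In the mean of the lines it fell by 0.64 ± 0.09 (SE) at 6 h, 1.56-fold (adjusted p = 0.0028). It was -0.51 in the control line (adjusted p = 0.077) and -0.78 in the cIAP2 line (adjusted p = 0.020), the latter lost without any 1 of the 4 cIAP2 arrays at 6 h or either untreated control array at 6 h (adjusted p = 0.052 to 0.15). At 24 h the LYN changes were 0.06 (95% interval -0.21 to 0.34) and -0.03 (-0.31 to 0.24), which leaves room for a change of at most 0.34 either way.

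At 6 h none of the 8 genes passed in the control line by limma, against 1.95% of all probes. At an unadjusted p under 0.05 there were 3, and the share of all probes at that looser threshold is not given. LYN alone passed in the cIAP2 line, against 1.09%. In the mean of the lines LYN and CSK fell, against 5.93%.

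YES1 and FYN were the genes that rose at 24 h. YES1 rose by 0.81 ± 0.27 (SE) in the cIAP2 line (adjusted p = 0.047), a call that held only without the dim array (1.05, adjusted p = 0.034) or without either control array given bortezomib for 6 h (adjusted p = 0.029), and reached an adjusted p of 0.21 otherwise. It was also lost under 7 of 10 other settings, and with the model-based background correction the change was 0.04 (adjusted p = 0.96). FYN rose by 0.42 ± 0.13 in the mean of the lines (adjusted p = 0.034), lost without any 1 of 8 arrays, namely the cIAP2 arrays untreated or given bortezomib for 6 h and the second control arrays at 24 h (adjusted p = 0.051 to 0.12). With each array scaled to its 75th percentile, in place of quantile normalization, FYN changed by 0.21 (adjusted p = 0.34). The FYN call was also lost without a filter on signal and with array weights.

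SRC changed by -0.02 (95% interval -1.34 to 1.30) in the control line at 24 h and by -1.07 (-2.39 to 0.25) in the cIAP2 line, intervals too wide to tell a change of 2-fold from none. LCK on its brighter probe changed by -1.62 in the control line (95% interval -3.29 to 0.05; adjusted p = 0.18). This LCK change was -1.66 to -0.73 under the 9 other settings computed. It passed under 3 of them, 75th percentile scaling, normexp and array weights (adjusted p down to 0.0028).

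**Figure D4:**
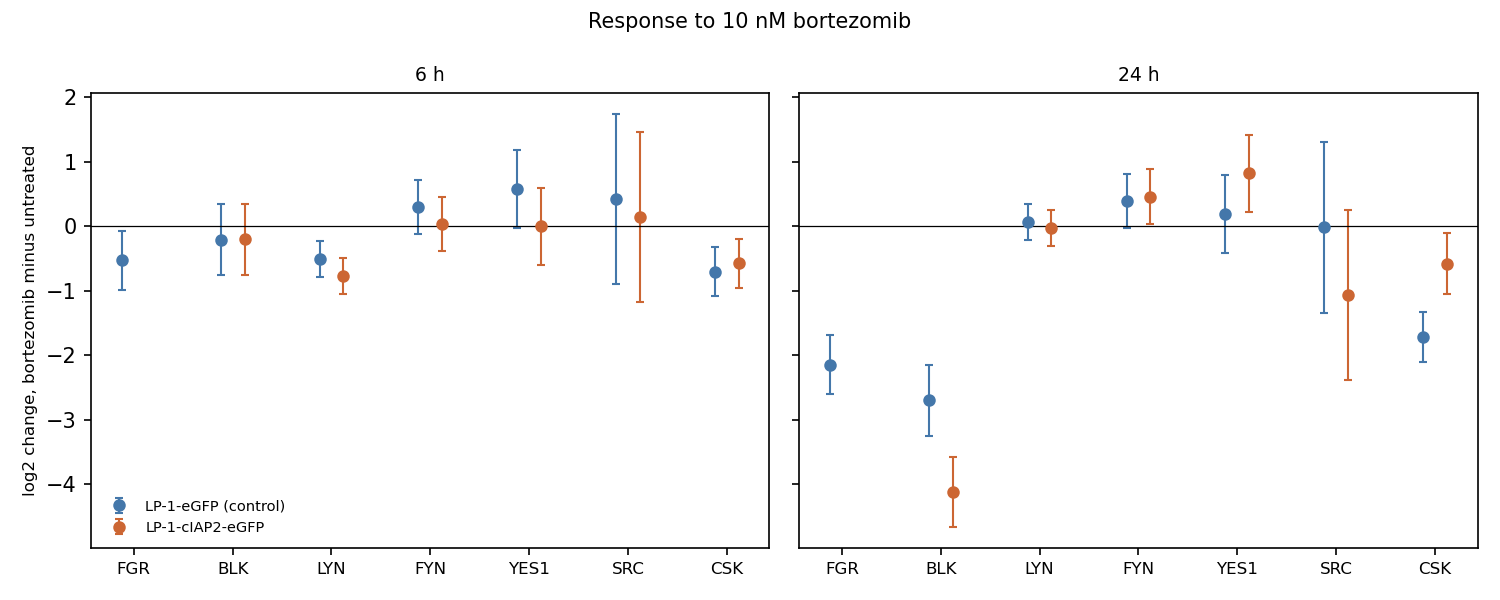
Log2 change, bortezomib minus untreated (vertical axis), at 6 h and 24 h for 7 of the genes, control line in blue and LP-1-cIAP2-eGFP in orange, with 95% intervals from limma. FGR is drawn for the control line alone, and at 24 h FGR, BLK and CSK stand below 0 there at -2.15, -2.70 and -1.72 while LYN stands at 0.06.

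None of the 7 genes tested differed between the lines in its bortezomib response by limma, where 0.00297% of all probes passed at 6 h and 0.0712% at 24 h. At an unadjusted p under 0.05 there were 0 of the genes at 6 h and 2 at 24 h (BLK and CSK). The share of all probes at that looser threshold is not given, so these counts have nothing to be set against. Between untreated 24 h and 6 h none of the genes passed by limma either, where 0% of all probes passed in the control line and 0.0208% in the cIAP2 line. At an unadjusted p under 0.05 there was 1 in each line (BLK), again without a share of all probes. BLK read 1.02 higher at 24 h in the control line (95% interval 0.47 to 1.56) and 0.78 higher in the other (0.23 to 1.33).

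Phosphatases, adaptors and ubiquitin ligases known to act on SRC family kinases or CSK, with other inhibitors and activators of tyrosine kinase signalling, were read as a list of 20 genes, of which 19 were tested. In the average between the lines 4 were higher and 2 were lower in the cIAP2 line, where 16.1% of all probes passed, with a list median of 0.06 beside -0.02 over all probes tested. PAG1, the membrane adaptor that recruits CSK, was higher by 0.93 ± 0.23 (SE; adjusted p = 0.021). PTPN22, a phosphatase that binds CSK and dephosphorylates SRC family kinases, was higher by 0.88 ± 0.07 (adjusted p = 3.8e-05), and LIME1, another CSK-binding adaptor, by 0.38 (adjusted p = 0.0054). Between the untreated lines LIME1 alone of the list passed as higher. PTPN22 did not pass there, and its difference after 24 h of bortezomib was 2.27 (adjusted p = 7.5e-05). SOCS1, an inhibitor of JAK kinases, was lower (-1.26 ± 0.17, adjusted p = 0.00074), as was UNC119, an activator of LYN, LCK and FYN (-0.55, adjusted p = 0.0060). Without the dim array 5 were higher and 3 lower.

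Bortezomib at 24 h raised 3 and lowered 4 of these 19 genes in the control line and raised 5 and lowered 5 in the cIAP2 line, where 21% and 28.6% of all probes passed, with list medians of 0.01 and -0.05 beside -0.03 and -0.16. DOK1, an adaptor that restrains tyrosine kinase signalling, rose by 2.33 ± 0.13 (SE) and 2.30 ± 0.13 (adjusted p = 1.0e-05 and 5.5e-06), and it had risen at 6 h by 1.49 and 1.14. SOCS1 rose by 1.23 and 2.55, and UNC119 by 1.10 and 1.42. LIME1 fell by 1.15 and 1.82, and PTPN18, a phosphatase, fell by 0.79 and 1.10. PTPN6, the SHP-1 phosphatase, fell by 2.34 ± 0.51 in the cIAP2 line and by 1.81 ± 0.36 in the mean of the lines. It was above background on 7 control arrays and 6 of the cIAP2 line, so its fall may be read partly against background.

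PTPN22 was the gene of this list whose response differed between the lines. In the control line PTPN22 read 9.43 and 9.29 untreated at 24 h and 8.35 and 8.14 with bortezomib. In the cIAP2 line it read 9.83 and 9.74, and 10.50 and 10.52. Both treated arrays read below both untreated arrays in the control line and above both in the cIAP2 line. The changes were -1.12 ± 0.15 (SE; adjusted p = 0.00060) and 0.72 ± 0.15 (adjusted p = 0.0052), and the difference of 1.84 ± 0.21 passed (adjusted p = 0.022). This call was lost with 75th percentile scaling (adjusted p = 0.066) and with array weights, and it passed for 6 of the 16 arrays when each was left out in turn. At 6 h PTPN22 fell by 0.69 in the control line (adjusted p = 0.050).

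**Figure D5:**
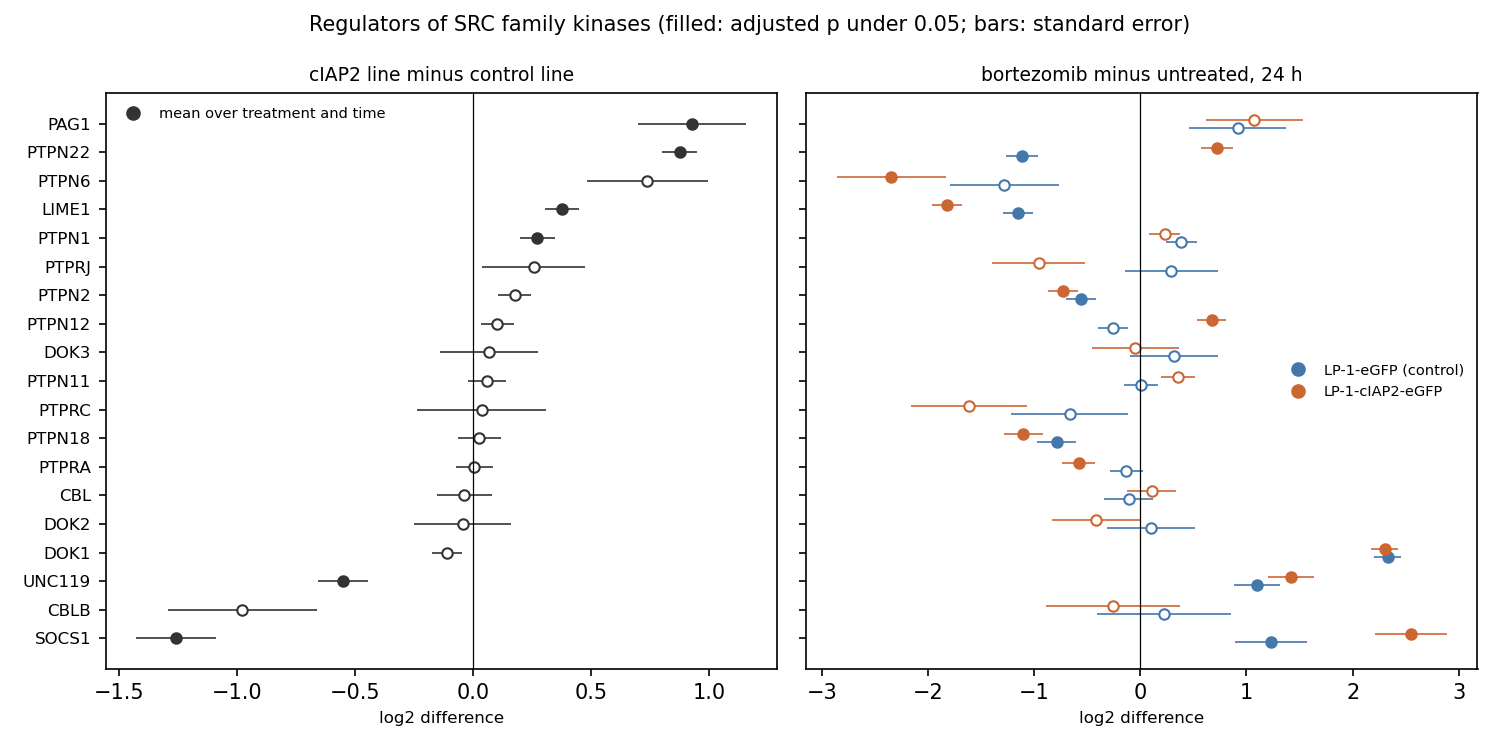
Log2 differences (horizontal axes, bars are SE) of 19 regulators of SRC family kinases, CSK or other tyrosine kinase signalling (rows), between the lines on the left and after 24 h of bortezomib in each line on the right, filled where the adjusted p was under 0.05. PTPN22 lies at -1.12 in the control line (blue) and 0.72 in the LP-1-cIAP2-eGFP line (orange), while DOK1 lies at 2.33 and 2.30.

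Genes of B cell receptor signalling, which LYN and BLK begin, were mixed. Of 24 genes 17 were tested, and 3 were higher and 2 lower in the cIAP2 line (list median 0.03), where 16.1% of all probes passed. LAX1, a membrane adaptor phosphorylated by SRC family kinases, was higher by 2.78 ± 0.10 (SE; adjusted p = 1.7e-07), PRKCB, a protein kinase C, by 0.88 and PLCG2, a phospholipase, by 0.50. VAV2, an exchange factor, was lower (-1.27 ± 0.13, adjusted p = 0.00011), as was the adaptor GAB2 (-0.77). At 24 h of bortezomib 1 rose and 2 fell in the control line and 4 rose and 3 fell in the other, where 21% and 28.6% of all probes passed. PRKCB fell by 2.10 and 3.29 and VAV1 by 0.97 and 1.75, while GAB2 rose by 0.79 and 1.28.

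Among 16 tested of 18 integrin and adhesion genes whose products SRC family kinases phosphorylate or join, 2 were higher and 8 lower in the cIAP2 line (list median -0.26 beside -0.02), and 2 and 6 with slide as a fixed term, where 6.26% of all probes were higher and 9.84% lower. PTK2, the focal adhesion kinase, could be measured above background on all 8 control arrays and on none of the other line, so it entered the count through the control line alone. It was at least 1.71-fold lower untreated at 6 h and at least 2.85-fold lower at 24 h. CTTN, which encodes cortactin, was lower (-1.30 ± 0.14 (SE), adjusted p = 0.00019), as was RAPGEF1, an exchange factor (-1.25). ITGA4, the alpha 4 integrin chain, was higher by 0.68 and PTK2B, the focal adhesion kinase of blood cells, by 0.50. Bortezomib at 24 h lowered PTK2B by 2.56 and 3.64 and ITGA4 by 2.44 and 2.56 in the control and cIAP2 lines, and raised BCAR1, a docking protein, by 1.59 and 2.05.

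Of 15 tested among 19 other non-receptor tyrosine kinases, 3 were higher and 7 lower in the cIAP2 line (list median -0.38), and 3 and 3 with slide as a fixed term, where 16.1% of all probes passed. PTK2 and PTK2B stand in both this list and the adhesion list. FES could be measured above background on all 8 control arrays and 2 of the other line, in no condition on both, so it too entered through the control line. It was at least 33.2-fold lower untreated at 6 h and at least 13.8-fold lower after 24 h of bortezomib. JAK3, the kinase of the common gamma chain receptors, was lower (-1.91 ± 0.10 (SE), adjusted p = 1.8e-06). ZAP70, best known as a substrate of LCK in T cells, was 2.83-fold higher (adjusted p = 0.00063), and TNK2 by 0.65. FER rose at 24 h of bortezomib by 1.44 and 1.15.

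FRK, a kinase related to the family, was well above background on no array.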

How the data were processed

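Per the labels and the study's methods, total RNA from the LP-1 lines was amplified, labelled with cyanine 3 and hybridised to 1-colour Agilent SurePrint G3 arrays, and the authors used GeneSpring. The deposited scanner files hold linear intensity per spot (background-corrected by the scanner software), and the deposited value tables hold log2 values that the authors normalized, used here as an alternative. Of 50599 gene probes, 28174 (55.7%) matched a RefSeq symbol, giving 20503 genes. Control spots and spots marked as outliers were left out, spots of a probe were averaged, log2 signals were quantile-normalized, and a probe was tested if well above background on all arrays of at least 1 condition.

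Differences were tested with limma 3.58.1 in R 4.3.3 on 16 arrays, each of the 8 conditions with its own mean, with Benjamini-Hochberg adjustment over the 33731 probes (called under 0.05). The scripts were tested on simulated data. Plus or minus values are standard errors from this fit, and intervals are 95%. A gene is read by its brightest probe. Where no array of a group had a gene well above background, its fold is a bound, the bright mean against the higher of the dim probe's own signal and the lowest signal marked well above background on each array. All members are named, and from each further list up to 3 genes with the largest rise and 3 with the largest fall among those called. The members and lists were chosen with earlier results of these data known. The study's methods call the replicates biological, and precision is limited by 2 arrays a condition.

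The alternatives were 75th percentile scaling, normexp background correction, the authors' values, other filters on dim probes, array weights, slide as a fixed term, a replicate block, probes averaged per gene, each array left out, and outlier spots kept, the last chosen after seeing the data. Same-numbered replicates did not deviate together (28 correlations of -0.11 to 0.24, median 0.04).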

Additional observations from a re-analysis of the deposited data

Results flagged for a closer look

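The response to 24 h of bortezomib read differently in the lines for FGR and for PTPN22. The FGR responses were 2.51 ± 0.29 (SE) apart on the log2 scale, with -2.15 in the control line and 0.36 in the cIAP2 line, where no array had FGR well above background, so the share of it from that line reads background. It shares its arrays with the comparison that chose FGR and is a description with no test.

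PTPN22, the phosphatase that binds CSK, differed by 1.84 ± 0.21 in the limma interaction test (adjusted p = 0.022), falling by 1.12 in the control line and rising by 0.72 in the cIAP2 line. At 24 h both treated arrays read below both untreated arrays in the control line and above both in the cIAP2 line. Under the 9 other settings computed the difference was 1.62 to 1.88, and 7 passed, not 75th percentile scaling or array weights. Leaving out 1 array at a time gave 1.73 to 1.95 and passed for 6 of 16 arrays (adjusted p = 0.00052 to 0.12). The call was lost without any 1 of the 4 untreated 24 h arrays, the 4 control arrays given bortezomib or either untreated 6 h array of the cIAP2 line. Over all probes 24 passed this test, and no cause was tested.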

How the results depend on the processing

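Of 108 values named for the 8 genes, 25 passed, and these were recomputed under 26 other settings. The 25 include the LCK calls between the lines, which support nothing. Of 631 recomputed values of called results 499 kept their call, 132 lost it and none reversed, and 50 values that had not passed did so under another setting. BLK (between the lines on average and in 3 conditions, and with bortezomib at 24 h), FGR and CSK with bortezomib at 24 h in the control line, LYN between the lines on average, and LYN at 6 h in the mean of both lines passed under every setting that could be computed. A replicate block changed 1 call (LCK between the lines after 6 h of bortezomib).

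The number of genes called moved by over 1.5 times as follows, and smaller moves are not listed. Fewer genes were tested under the filter on all arrays. Under the stricter rule, 2 genes became 0 with only probes above background on all arrays, 1 with slide as a fixed term and 1 with probes averaged. For the line average, 5 became 3 with the all-array filter, slide or array weights. Untreated at 6 h, 3 became 1 without a filter or with the all-array filter, and at 24 h 2 became 1 with these or slide. For bortezomib 6 h between the lines, 2 became 1 with the authors' values, no filter, the replicate block, slide, outlier spots kept or probes averaged, and 4 with array weights. At 24 h between the lines, 2 became 1 with no filter, the all-array filter or slide, and 0 with array weights. For bortezomib at 6 h in the control line, 0 became 1 with the all-array filter and 3 with array weights, and in the cIAP2 line 1 became 0 with 75th percentile scaling, no filter or slide, and 2 with array weights. At 24 h in the control line 3 became 0 with the all-array filter, which tests only LYN, FYN and YES1, and in the cIAP2 line 2 became 1 with 75th percentile scaling, normexp, no filter, slide, array weights or probes averaged. In the mean of both lines at 6 h 2 became 1 with 75th percentile scaling, no filter or the all-array filter. The cause was not tested beyond the fewer genes of that filter.

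Leaving out 1 array at a time gave 1 to 2 genes under the stricter rule, 4 to 6 for the line average, 1 to 3 untreated at 6 h and at 24 h, 1 to 4 and 0 to 3 with bortezomib at 6 h and 24 h, 0 to 2 and 3 to 4 for bortezomib in the control line, 0 to 1 and 1 to 3 in the cIAP2 line, 1 to 2 and 2 to 4 in their mean, 0 and 0 to 2 for the difference of responses, and 0 for time untreated. Scaling to the 75th percentile moved the median of all probes from -0.16 to 0.21 for bortezomib at 24 h in the cIAP2 line and from -0.09 to 0.13 in the mean of the lines. The lowest bound for untreated FGR was 135-fold, with normexp in place of 483-fold. CSK after 24 h of bortezomib could not be fitted without the second cIAP2 array. The dim array limits what can be read after 24 h of bortezomib in the cIAP2 line.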

Other observations

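Across the 16 arrays, CTSF followed FGR most closely of 15490 genes (Pearson r = 0.989), then KCNK12 (0.988), SCRN1 (0.987), BTBD6 (0.984) and IL32 (0.982). GFOD1 (0.923), GCA (0.920) and F11R (0.914) were closest to LYN, SPTBN1 (0.931), GLG1 (0.913) and RPRD2 (0.908) to FYN, and RMND5A (0.895), RNF41 (0.890) and DCUN1D4 (0.882) to YES1. FGR was unmeasured in the cIAP2 line, so the values of 8 of these arrays are background and its likeness restates the line difference that chose it. These arrays share lines, treatments and slides, so the values are a description and carry no test.

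Plasma cell markers changed with bortezomib at 24 h, with 1 of 12 higher and 8 lower in each line, where 21% of all probes passed in the control line and 28.6% in the cIAP2 line, and list medians of -1.21 in the control line and -1.37 in the cIAP2 line, beside -0.03 and -0.16 over all probes. Between the lines on average 5 were higher and 1 lower, where 16.1% of all probes passed. SLAMF7, a surface receptor of plasma cells, named after its values were seen, was higher in the cIAP2 line by 5.79 ± 0.15 (SE; adjusted p = 2.3e-08), and above background on 5 control arrays and all 8 of the other line.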
